A study of Mus musculus with 6 samples.

Results

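A set of 10 genes of mouse antigen presentation was followed across the immune cells of brains that carried a human glioma: the class I heavy chains H2-K1, H2-D1, H2-T23 and H2-Q7, their light chain B2m, the loading genes Tap1 and Tapbp, the immunoproteasome genes Psmb8 and Psmb9, and the regulator Nlrc5. They were chosen by symbol, and all 10 were found among the 31053 genes of the deposited matrix. The samples were CD45+ cells of SCID mice, labelled 6 to 8 weeks old, that had received 50000 human U87 glioma cells. In 3 mice the U87 cells expressed IL-33 and the immune cells were taken at 3 weeks. In the other 3 mice they carried the empty vector pcDNA 3.1 and the cells were taken at 6 weeks. The tissue was the right, tumor-bearing hemisphere, and the cells were sorted for CD45, captured on the 10x Chromium platform with 3′ chemistry and sequenced. SCID mice lack mature T and B cells but keep NK cells and the myeloid lineages, and every mouse of both groups was SCID. IL-33 and the time of collection changed together, so they cannot be told apart.

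MHC class I molecules carry peptides from inside a cell to its surface. A heavy chain (H2-K1 and H2-D1 are the classical ones, H2-T23 and H2-Q7 non-classical ones that encode Qa-1 and Qa-2) folds with beta-2 microglobulin (B2m). TAP, a pump built from Tap1 and Tap2, moves peptides into the endoplasmic reticulum, and tapasin (Tapbp) holds the empty heavy chain at the pump. The peptides are cut by the proteasome, in which the inducible catalytic subunits Psmb8, Psmb9 and Psmb10 can replace the constitutive Psmb5, Psmb6 and Psmb7. Interferons raise most of these genes through transcription factors such as Irf1 and through Nlrc5, a class I transactivator. NK cells read class I: the Ly49 receptors (Klra genes) bind classical H2 molecules, and the heterodimers of Klrd1 with Klrc1 or Klrc2 bind Qa-1, the product of H2-T23.

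Of 40411 barcodes, 38751 passed the filters (over 200 and at most 2500 genes, under 5% mitochondrial counts). The suffix of a barcode names 1 of 6 libraries, which held 2879 to 10217 barcodes, 9745192 to 24393841 UMIs and a median of 1536 to 3503 UMIs per barcode. Neither the sample labels nor the barcode names say which mouse a suffix stands for. The study lists cell numbers and median depths of its libraries by group, and the suffixes have the same values in the same order. Groups were taken from the labels alone and none was assigned through such a match, so the matrix was treated as 1 pooled sample: no IL-33 tumor was compared with a pcDNA tumor, and no p-value was computed. Differences between libraries may therefore hold a difference between the groups. Barcode sequences were shared between libraries. There were 3890 sequences found in more than 1 library, which covered 14722 barcodes (36.4%), and any pair of libraries shared 509 to 3428. Barcodes of that kind were shallow, with a median of 698 to 1125 UMIs per library against 2729 to 3740.5 for the others. The counts of called genes, and levels or ratios for part of the results, are therefore also given on the 24262 passing barcodes found in 1 library only, called unshared below.

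Cells were put into groups by marker genes, none of which is among the 10 genes described. Cells positive for microglial markers made up 35881 of the passing cells (92.6%). Of these, 29541 met no further gate, and they are called remaining microglia and used as the reference throughout (11407 of them had a shared barcode). The state gates took 482 interferon microglia (genes such as Ifit3, Rsad2 and Isg15), 750 class II microglia (H2-Aa, H2-Ab1, H2-Eb1, Cd74), 538 cycling, 352 Lpl, 1242 Spp1 and 2976 Ccl2 microglia. The study named part of its clusters bone-marrow-derived macrophages, among them a cluster with Ifit3 and another high in Spp1 and Apoe. Whether cells called microglia here include such macrophages was not tested. The lineage gates took 198 NK cells, 226 monocytes, 95 dendritic cells, 54 granulocytes and 234 choroid plexus cells. A cell that met both the monocyte and the dendritic gate was counted as dendritic. Only 2 cells met the border macrophage gate alone, and they were not analysed further. Another 22 cells met it together with the monocyte gate and were left out. The NK marker Ncr1 was at 1173 CPM (UMIs on a counts-per-million scale) in NK-gated cells and 0.222 in remaining microglia. A gate's own markers are high by selection, so their levels are no check of a gate. Just 15 cells met a T or B cell gate, and 5 of those also met the NK gate. Dendritic-gated cells carried Cd209a (2262 CPM) and had 5 UMIs of Xcr1 and 0 of Ccr7.

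Levels are given as CPM: the UMIs of a gene summed over the cells of a group and divided by all UMIs of those cells, on the counts-per-million scale. Brackets hold 95% intervals of the counting error of the pooled UMIs only. PCR, capture and differences between cells, libraries and mice add variation that they do not cover. Intervals described as apart or clear of the next compare pooled counts in this sense alone. A ratio sets a group against remaining microglia. A gene was called higher or lower at 2-fold or more, if the mean of both levels was at least 20 CPM. Nlrc5 was below that minimum in every comparison between groups, so counts run over 9 genes. RNA of the microglial genes Cst3, C1qa, C1qb, C1qc, P2ry12 and Tmem119 was found in other gates too. It exceeded 1% of the counts in 93 of 198 NK-gated cells (47.0%), in 28 of 54 granulocyte-gated cells (51.9%), in 58 of 226 monocyte-gated cells (25.7%) and in 64 of 234 choroid plexus cells (27.4%). The main values of these groups are also given without such cells.

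Of the 10 genes, 8 lie on chromosome 17, within the H2 complex. In GRCm38 (GENCODE vM21, all protein-coding genes) Tapbp is at chr17:33915899-33929292, H2-K1 at chr17:33996017-34000347, Psmb9 at chr17:34181987-34187764, Tap1 at chr17:34187553-34197225, Psmb8 at chr17:34197721-34201454, H2-D1 at chr17:35262730-35267499, H2-Q7 at chr17:35439155-35443773 and H2-T23 at chr17:36029773-36032855. B2m lies at chr2:122147686-122153083 and Nlrc5 at chr8:94434356-94527272. Promoter windows of RefSeq (GRCm38.p6, 250 bases before to 50 after the start) were found for 9 of the 10 genes, all but Nlrc5. The windows of the 3 heavy chains whose ratio in NK-gated cells was close to 3, of B2m and of Tap1 are shown for their control elements.
H2-K1: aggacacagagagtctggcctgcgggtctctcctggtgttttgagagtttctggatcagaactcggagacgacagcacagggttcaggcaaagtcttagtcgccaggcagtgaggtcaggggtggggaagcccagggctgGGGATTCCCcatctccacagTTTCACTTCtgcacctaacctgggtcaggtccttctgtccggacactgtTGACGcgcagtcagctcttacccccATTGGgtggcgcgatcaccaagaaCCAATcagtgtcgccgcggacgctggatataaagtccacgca
H2-D1: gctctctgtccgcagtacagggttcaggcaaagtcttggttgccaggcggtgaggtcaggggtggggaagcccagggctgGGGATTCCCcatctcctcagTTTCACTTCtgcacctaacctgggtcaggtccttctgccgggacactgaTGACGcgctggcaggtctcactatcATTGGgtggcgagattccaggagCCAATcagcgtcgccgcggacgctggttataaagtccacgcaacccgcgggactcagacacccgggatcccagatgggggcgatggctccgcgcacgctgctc
H2-Q7: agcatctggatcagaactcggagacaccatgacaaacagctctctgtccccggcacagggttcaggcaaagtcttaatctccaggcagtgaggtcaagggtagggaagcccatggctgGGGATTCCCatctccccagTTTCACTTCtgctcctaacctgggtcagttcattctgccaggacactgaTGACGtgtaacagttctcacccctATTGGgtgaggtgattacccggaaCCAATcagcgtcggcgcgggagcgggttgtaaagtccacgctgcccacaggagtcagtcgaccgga
B2m: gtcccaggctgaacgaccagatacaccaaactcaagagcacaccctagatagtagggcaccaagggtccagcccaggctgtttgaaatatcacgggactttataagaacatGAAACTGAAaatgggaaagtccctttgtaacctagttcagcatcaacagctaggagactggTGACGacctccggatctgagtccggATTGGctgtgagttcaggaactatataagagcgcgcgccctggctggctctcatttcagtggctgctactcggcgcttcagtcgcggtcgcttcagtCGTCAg
Tap1: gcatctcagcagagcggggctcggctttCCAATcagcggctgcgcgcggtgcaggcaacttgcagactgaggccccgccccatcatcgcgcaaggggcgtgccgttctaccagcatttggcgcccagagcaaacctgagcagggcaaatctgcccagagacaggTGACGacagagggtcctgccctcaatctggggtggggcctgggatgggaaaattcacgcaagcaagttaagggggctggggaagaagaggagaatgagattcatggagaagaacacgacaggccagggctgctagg
They cover chr17:34000298-34000597 (minus strand) for H2-K1, chr17:35262844-35263143 (plus) for H2-D1, chr17:35438905-35439204 (plus) for H2-Q7, chr2:122147437-122147736 (plus) for B2m and chr17:34187306-34187605 (plus) for Tap1. Capitals mark matches on either strand to GAAANNGAA or GAANNGAAA (cores of the interferon response element), TTCNNNGAA (a gamma-interferon activated site), GGGATTCCC (an NF-kB site), ATTGG (the CCAAT box) and TGACG (part of the cyclic AMP response element). H2-K1, H2-D1 and H2-Q7 held the same series: the NF-kB site, 1 TGACG and a CCAAT box in each direction, and, next to the NF-kB site, TTTCACTTC, the reverse of GAANNGAAA. These 3 windows are alike over much of their length, so their matches are not independent of each other.
The NF-kB letters were found in 115 of 32544 promoter windows (0.353%), either interferon core in 4836 (14.9%), TTCNNNGAA in 8.33%, the CCAAT box in 37.4% and TGACG in 20.9%. B2m held GAAACTGAA, H2-T23 held a core on the reverse strand, TTCTCTTTC, and Psmb8 held TTCCCAGAA. The windows of Tap1, Psmb9 and Tapbp held neither an interferon core nor TTCNNNGAA. The Tap1 window is read in the other direction by Psmb9: the 2 windows share 275 bases. A match describes letters in these windows of the reference genome, not of the SCID mice, and is no evidence of binding. A link between the motifs and the levels was not tested.

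In remaining microglia the genes were all detected, at very unequal levels. B2m gave 2814 CPM [2802, 2827], H2-D1 1632 [1622, 1642] and H2-K1 474 [468, 479]. Tapbp (243), Psmb8 (165), H2-T23 (131), Psmb9 (61.3), H2-Q7 (41.0) and Tap1 (25.1) were lower, and Nlrc5 gave 39 UMIs in all, or 0.577 CPM. These are tags from the 3′ end of transcripts, so they do not grow with gene length, but capture can still differ between genes. Over the 6 libraries H2-K1 ranged from 421 to 537, H2-D1 from 1417 to 2025, B2m from 2390 to 3184 and Psmb8 from 156 to 171 CPM. The libraries thus differed by less than 1.5-fold for these 4 genes. Reads of near-identical H2 genes can be lost or split between copies, so the level of each heavy chain is uncertain. SCID mice were read against the C57BL/6J reference, and the part of strain differences in the H2 levels was not tested.

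**Figure D1:**
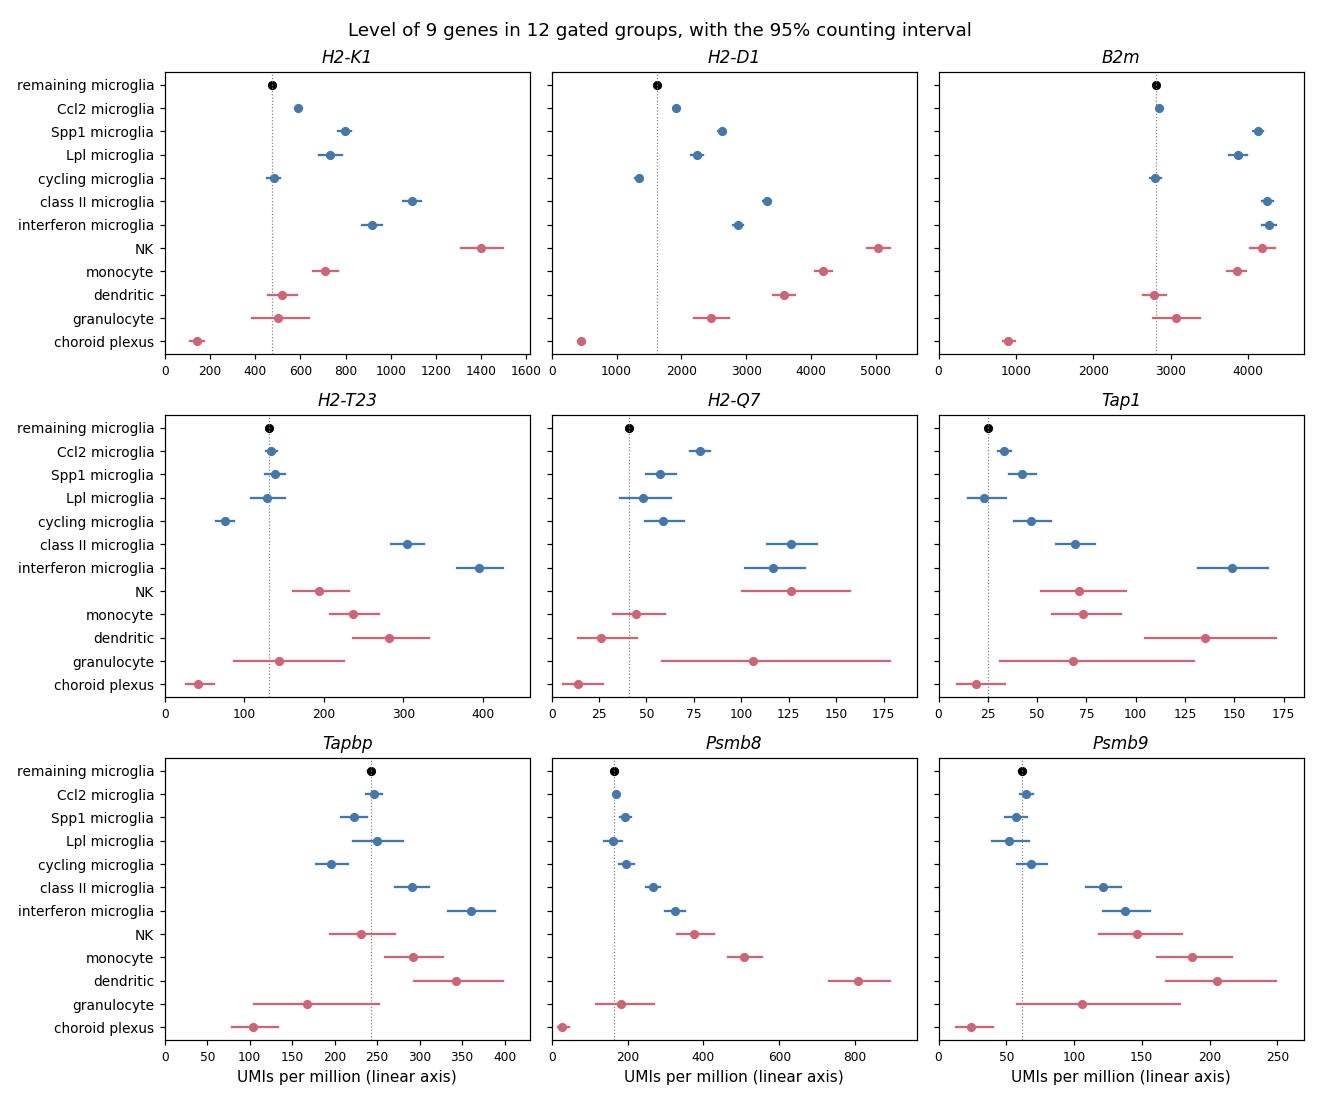
Level of 9 genes (x axis, CPM, linear) in 12 gated groups (rows), where points are summed counts over all libraries, lines are 95% counting intervals and the dotted line is the level in remaining microglia. NK-gated cells had the highest H2-K1 (1400.3) and H2-D1 (5034), dendritic-gated cells the highest Psmb8 (808), interferon microglia the highest H2-T23 (395), and choroid plexus cells were lowest for all 9 genes.

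NK cells, the readers of class I, themselves had the highest CPM of the classical heavy chains H2-K1 and H2-D1 of the 12 groups. CPM is a share of a group's UMIs, not an amount per cell. Monocyte-gated and dendritic-gated cells were deeper (median 4319 and 5187 UMIs, against 2641.5 in NK-gated cells), so an order per cell can differ. Of the 9 genes, 6 were at least 2-fold higher in NK-gated cells than in remaining microglia and none was 2-fold lower, where 13.6% of all genes tested were called higher and 6.53% lower (10.8% and 9.58% when ratios were centred on the median gene). The 6 were H2-K1, H2-D1, H2-Q7, Tap1, Psmb8 and Psmb9. The median log2 ratio of the 9 genes was 1.26, against 0.15 over all genes tested. H2-K1 stood at 1400.3 CPM [1310, 1496] in 198 NK-gated cells, a ratio of 2.96 [2.76, 3.16]. H2-D1 stood at 5034 [4861, 5212], a ratio of 3.09 [2.98, 3.20]. H2-Q7 reached 126 (ratio 3.08 [2.44, 3.85]), on 80 UMIs. These heavy chains were thus higher by about the same factor, while B2m, which pairs with each of them, was higher by 1.49-fold [1.43, 1.55].

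The peptide supply genes followed the heavy chains in part. Tap1 reached 71.0 CPM (ratio 2.83 [2.06, 3.81]), Psmb8 376 (2.28 [1.99, 2.59]) and Psmb9 147 (2.40 [1.93, 2.94]). Thinned to 500 UMIs a cell Tap1 had a ratio of 1.40, and without library 6 Psmb9 had 1.86. Tapbp did not move with them: its level was 230.5, a ratio of 0.950 [0.802, 1.12]. H2-T23, the gene of the Qa-1 molecule that Klrd1 receptors bind, stood at 194 (ratio 1.48 [1.23, 1.77]). Nlrc5 gave 2 UMIs in NK-gated cells, a ratio of 5.47 with an interval of 0.640 to 21.1, from which no order can be read.

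Single libraries gave the same picture. Only libraries 2, 4 and 6 held at least 20 NK-gated cells (22, 72 and 86). H2-K1 was at 1141, 1215 and 1475 CPM in them, and H2-D1 at 4088, 4757 and 5262. Each of these values was over 2.5 times that of remaining microglia in the same library. Psmb8 was at 375, 379 and 369.5 and varied little. Tapbp was at 136, 174 and 251, above remaining microglia in library 6 and below it in the other two. For Tap1 the within-library ratio ran from 1.57 to 2.44, and it was under 2 in library 2. The pooled Tap1 level of 71.0 lay above that of all 3 libraries (34.1, 50.3 and 64.4), so the NK-gated cells of libraries 1, 3 and 5 (8, 2 and 8) raised it.

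**Figure D2:**
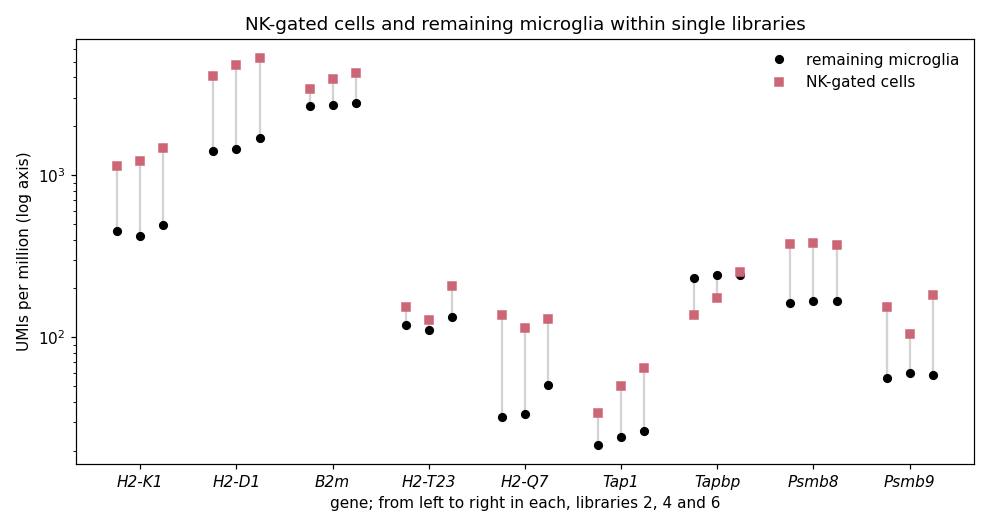
Level of 9 genes (y axis, CPM, log axis) in NK-gated cells (squares) and remaining microglia (circles) within libraries 2, 4 and 6, drawn from left to right for each gene. For every gene but Tapbp the NK value lies above the microglial one in all 3 libraries, and H2-D1 is 2.88 to 3.27-fold higher in them.

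The ratios were larger in NK-gated cells with little microglial RNA. In the 105 NK-gated cells with at most 1% of it (median 1606 UMIs), H2-K1 was at 2162 and H2-D1 at 7634 CPM. The ratios were then 4.57 [4.13, 5.03] and 4.68, and those of H2-Q7, Tap1, Psmb8 and Psmb9 were 5.13, 3.57, 3.34 and 3.69. B2m was higher by 1.88-fold. The same 6 genes were called, against 28.0% of all genes tested. The 105 cells gave 411 of the 887 H2-K1 UMIs and 1451 of the 3189 H2-D1 UMIs of all NK-gated cells. The main values of both genes thus rest for the larger part on cells over 1% microglial RNA. The 105 cells were also shallower than the 198, and the part of depth in the ratios was not tested. On the 185 NK-gated cells with unshared barcodes the ratios were 3.27 for H2-K1, 3.42 for H2-D1 and 2.80 for H2-Q7. Those of Tap1, Psmb8 and Psmb9 were 3.11, 2.34 and 2.21. The same 6 were called, where 14.4% of all genes were called higher and 7.27% lower.

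The other genes of the pathway moved less in NK-gated cells. Of 4 other class I chains tested, only H2-T22 was called (48.9 CPM, ratio 2.64 [1.78, 3.76]). None of 6 other loading genes was: Tap2, the partner of Tap1, had a ratio of 1.91 [1.5, 2.40], and the chaperones Calr and Pdia3 had ratios of 0.711 and 0.693. Psme1, a subunit of the proteasome cap that interferon induces, was at 2.06 [1.76, 2.39], its partner Psme2 at 1.99 and Psmb10 at 1.65. None of the 3 constitutive catalytic subunits and none of 11 structural subunits was called, and Psmb5, Psmb6 and Psmb7 stood at 1.58, 1.34 and 1.25. Of the regulators Irf1 was at a ratio of 1.27 and Irf9 at 0.544.

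NK-gated cells also carried RNA of interferon gamma, which is known to raise these genes. Ifng gave 71 UMIs in them (112 CPM) and 3 in remaining microglia, a ratio of 2525 with a counting interval from 830 to 12534. At least 1 UMI of Ifng was seen in 47 of 198 NK-gated cells (23.7% [18.0, 30.3]) and in 3 of 29541 remaining microglia. The level was 210 CPM in the 105 NK-gated cells with at most 1% microglial RNA, where the share was 24.8%, and 121 CPM on the 185 with unshared barcodes (25.4%). Ifngr1, the ligand-binding receptor chain, was at 819 CPM in NK-gated cells and 558 in remaining microglia. Ifngr2, the other chain, went the other way, at 125 and 187 CPM (ratio 0.666 [0.527, 0.830]). Ifnar1 had a ratio of 1.62 and Ifnar2 of 0.673, and none of these 4 receptor genes was called. The median depth was 2641.5 UMIs in NK-gated cells and 2275 in remaining microglia.

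The receptors that read class I were plentiful in NK-gated cells and close to absent in remaining microglia. Klrd1, the common chain, gave 521 UMIs in NK-gated cells (822 CPM) and 6.78 CPM in remaining microglia. Dendritic-gated cells gave 28 UMIs of it (56.4 CPM, ratio 8.32 [5.47, 12.2]). Klrd1 was seen in 171 of 198 NK-gated cells (86.4% [80.8, 90.8]) and in 1.44% of remaining microglia. Its inhibitory partner Klrc1 was seen in 90 cells (45.5% [38.4, 52.7]; 279 CPM) and its activating partner Klrc2 in 68 (34.3% [27.8, 41.4]; 169 CPM). In remaining microglia the 2 partners gave 2 and 4 UMIs. Thinned to 500 UMIs a cell, which left out none, the shares were 40.4% for Klrd1, 16.7% for Klrc1 and 10.1% for Klrc2, against 0.213%, 0% and 0.00339% in remaining microglia. In the 105 NK-gated cells with at most 1% microglial RNA the levels were higher, at 1647 CPM for Klrd1, 463 for Klrc1 and 268 for Klrc2, while the shares of cells moved little, to 87.6%, 46.7% and 33.3%. The 185 NK-gated cells with unshared barcodes gave 835, 287 and 178 CPM.

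Among the Ly49 genes Klra3 led with 200 UMIs in 66 cells (33.3% [26.8, 40.4]), before Klra7 with 56 UMIs in 36 cells (18.2%). Klra3 was at 316 CPM in all NK-gated cells, at 695 in those with at most 1% microglial RNA and at 334 in those with unshared barcodes. Klra9, Klra4 and Klra1 were seen in 15, 8 and 7 cells and Klra8 in 1. Klra3 gave 1 UMI in 29541 remaining microglia and the other Klra genes gave 0, which allows up to 3 UMIs each. The Klra genes are close copies that differ between strains, so reads may be split or lost between them and their order is uncertain. Sorted by what each cell showed, 39 NK-gated cells had UMIs of both a Klra gene and Klrc1, 55 of a Klra gene without Klrc1, 51 of Klrc1 without a Klra gene and 53 of neither. At this depth a cell without a UMI may still express the gene. Some UMI of the 10 class I receptor genes was present in 191 of 198 NK-gated cells (96.5%) and in 1.46% of remaining microglia, nearly all of it Klrd1.

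**Figure D3:**
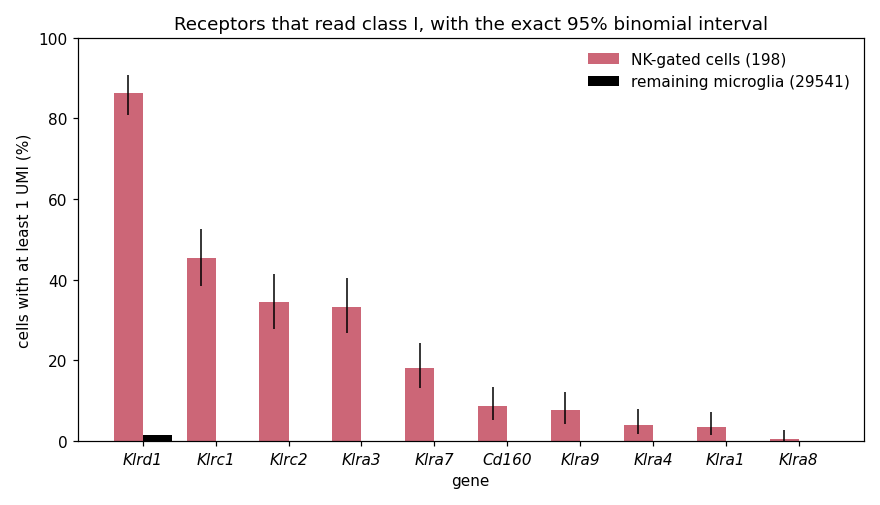
Share of cells with at least 1 UMI (y axis, percent) of 10 genes for receptors that bind class I, in 198 NK-gated cells (light bars, with exact 95% binomial intervals) and 29541 remaining microglia (dark bars). Klrd1 leads at 86.4%, before Klrc1 at 45.5%, and the dark bars are at or near 0 except for Klrd1 at 1.44%.

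Klrc2 varied between libraries. It gave 2 UMIs in library 2 (34.1 CPM [4.13, 123]) and 206 and 176 CPM in libraries 4 and 6, with intervals that do not overlap that of library 2. Klra3 was at 494 in library 2 and at 260 and 312 in the others, where the intervals do overlap. Library 2 held 22 NK-gated cells, and its Klrc2 value was picked out after it was seen. The 3 libraries may come from mice of both groups, so library and group cannot be told apart here. Hcst, the adaptor that passes on the NKG2D signal, was at 376 CPM in NK-gated cells, a ratio of 37.0, while Tyrobp, an adaptor that microglia use as well, was at 1909 against 1917. Fcgr3 was lower in NK-gated cells (646 against 1442), and it was at 78.9 in those with at most 1% microglial RNA. The 5 genes counted for ligands of NKG2D were at low levels. Ligand genes outside this list were not looked at, and the part of strain differences was not tested. H60b was the only 1 of 5 to pass the minimum level in any comparison, at 17.4 CPM in remaining microglia, 48.6 in monocyte-gated and 58.4 in dendritic-gated cells. Within microglia H60b was called higher in the Lpl (43.7, ratio 2.51 [1.84, 3.34]) and Spp1 (40.1, ratio 2.30 [1.92, 2.73]) groups. Ulbp1, another ligand, was at 32.8 in cycling microglia on 72 UMIs and at 2.19 in remaining microglia.

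Dendritic-gated cells had high H2-D1, as NK-gated cells did, but H2-K1 near that of remaining microglia. Of the 9 genes 5 were called higher (H2-D1, H2-T23, Tap1, Psmb8, Psmb9) and none lower, against 22.9% and 17.5% of all genes tested, with a median log2 ratio of 1.11 (0.20 over all genes). Centred on the median gene, 3 of the 5 were called, where 18.9% of all genes were higher and 21.2% lower. Psmb8 was at 808 CPM [731, 891], a ratio of 4.89 [4.42, 5.40], and Tap1 at 135 [105, 171], a ratio of 5.38 [4.15, 6.87]. H2-D1 stood at 3579 (2.19), H2-T23 at 282 (2.16) and Psmb9 at 205 (3.35). H2-K1 was at 518 (ratio 1.09 [0.963, 1.24]), B2m at 2790 (0.991 [0.94, 1.05]) and H2-Q7 at 26.2 on 13 UMIs (0.639 [0.340, 1.09]). In libraries 4 and 6, the only ones with 20 such cells, Psmb8 was at 798 and 867. The unshared barcodes (90 cells) gave the same 5 and put H2-Q7, at 0.497, among the genes called lower. Of all genes 23.8% were called higher there and 17.6% lower. Other proteasome genes were called higher in the dendritic gate too: 9 of 11 structural subunits (Psma7 at 4.25), 1 of the 3 constitutive catalytic subunits (Psmb5), and all 4 of Psmb10, Psme1, Psme2 and Pomp. Without its 14 cells over 1% microglial RNA Psmb8 had a ratio of 4.37 and Tap1 of 4.91. Without library 5 H2-T23 was just under 2-fold (1.97).

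Monocyte-gated cells were high for H2-D1 too, with smaller ratios of Tap1, Psmb8 and Psmb9 than dendritic-gated cells. H2-D1 (4190 CPM, 2.57 [2.49, 2.65]), Tap1 (73.5, 2.93 [2.28, 3.72]), Psmb8 (508, 3.08 [2.80, 3.37]) and Psmb9 (187, 3.06 [2.62, 3.55]) were called, 4 of 9 against 18.5% of all genes (15.1% lower), and the median log2 ratio was 0.86 (0.07 over all genes). H2-K1 was at 710 (1.5), H2-T23 at 237 (1.81), and H2-Q7 at 44.5 (1.09 [0.784, 1.47]). Over the 4 libraries with 20 cells H2-D1 ran from 3592 to 4290 and Psmb8 from 418 to 613. Nlrc5 gave 6 UMIs (6.21 CPM). The same 4 were called on the 212 cells with unshared barcodes and on the 168 with at most 1% microglial RNA. Of all genes 19.4% and 20.7% were called higher there, and 15.1% and 17.5% lower. The regulator Stat2 was called too (2.38), as were 3 of the 4 inducible partners and 5 of 11 structural subunits. H2-Q4, a non-classical chain, was lower in both monocyte-gated (43.5, ratio 0.406) and dendritic-gated cells (34.2, 0.320) than in remaining microglia (107). The myeloid receptors for class I, Pirb, Lilrb4a and Pira2, were called in both: Pirb was at 181 and 133 CPM, against 5.92 in remaining microglia and 1 UMI in NK-gated cells.

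Granulocyte-gated cells were few, and no library held 20 of them. Another 47 cells met both the granulocyte and the monocyte gate and were left out. H2-Q7 (106 CPM, ratio 2.59) and Tap1 (68.3, ratio 2.72) were called on 14 and 9 UMIs, 2 of 9 genes where 10.9% of all genes were called higher and 12.5% lower. The other ratios lay between 0.688 and 1.73, and the median log2 ratio was 0.14 (-0.11 over all genes). Without library 4 Psmb9 passed 2-fold (2.56). Both genes were called on the 51 cells with unshared barcodes, where 11.4% of all genes were called higher and 11.8% lower. On the 26 cells with at most 1% microglial RNA 4 genes were called higher and 1 lower, where 32.7% and 35.1% of all genes were, and the values there rest on few UMIs: Psmb9 had a ratio of 5.01 on 7 and Tap1 of 5.25 on 3. Choroid plexus cells, an epithelium and not an immune cell, were the low end of the scale. Of the 9 genes 8 were called lower and none higher, against 35.2% and 17.1% of all genes (22.1% and 25.0% when centred on the median gene), with a median log2 ratio of -1.64 (-0.48 over all genes). B2m was at 903 CPM (0.321 [0.294, 0.350]), H2-D1 at 459 (0.281) and Psmb8 at 27.6 (0.167 [0.0954, 0.271]). Tap1 was at 19.0 on 11 UMIs (0.756 [0.377, 1.36]). In the 170 choroid plexus cells with at most 1% microglial RNA B2m was at 265, H2-D1 at 86.7 (ratio 0.0531) and Psmb8 at 2.55 on 1 UMI, and H2-Q7 gave 0 UMIs. Without library 1 H2-Q7 (0.586), Tapbp (0.531) and Psmb9 (0.519) were no longer called. The 179 cells with unshared barcodes gave 8 genes called lower as well, where 34.2% of all genes were called lower and 17.6% higher.

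**Figure D4:**
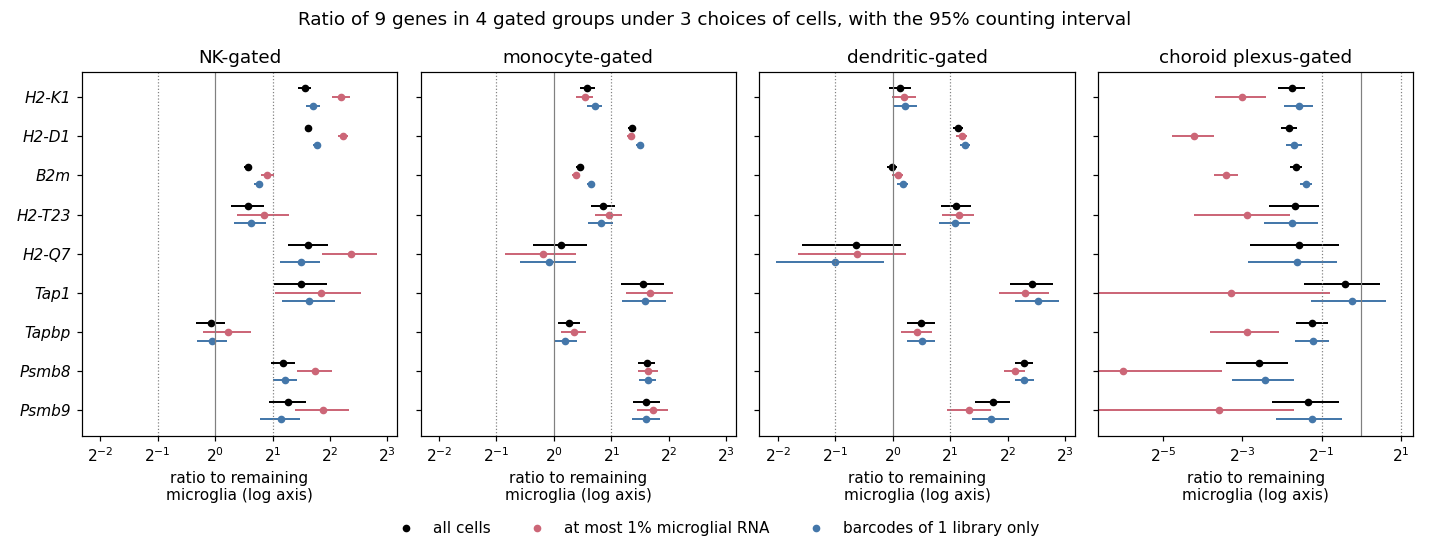
Ratio to remaining microglia (x axis, log axis, with 95% counting intervals) of 9 genes in 4 gated groups, for all cells (black), cells with at most 1% microglial RNA (red) and barcodes of 1 library only (blue), with dotted lines at 2-fold. In NK-gated cells the red points for H2-K1 (4.57) and H2-D1 (4.68) lie to the right of the black ones (2.96 and 3.09), and in choroid plexus cells they lie far to the left. H2-Q7 of that group had 0 UMIs and is not drawn, and 2 intervals run past the left edge.

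Within microglia, class I and immunoproteasome RNA was highest in the interferon and class II groups. In interferon microglia 4 of 9 genes were called higher, against 4.15% of all genes (1.25% lower), with a median log2 ratio of 0.97 (-0.07 over all genes). Tap1 was at 149 CPM [132, 167], a ratio of 5.93 [5.2, 6.74]. H2-T23 was at 395 (3.02 [2.80, 3.26]), H2-Q7 at 117 (2.85) and Psmb9 at 138 (2.25). Psmb8 (1.97 [1.81, 2.13]) and H2-K1 (1.94 [1.84, 2.03]) lay just under 2-fold, and B2m (1.52), H2-D1 (1.76) and Tapbp (1.48) further below. All 9 genes were above remaining microglia in each of the 5 libraries with 20 such cells. Without library 5 H2-K1 passed 2-fold (2.14), as Psmb8 did without library 4 (2.02) or library 6 (2.06). Over the 5 libraries H2-T23 ran from 303 to 758, with library 1 the highest. Of the 482 cells 188 met no other state gate, and on them H2-Q7 had a ratio of 1.54. Nlrc5 reached its highest level here, 12.9 CPM on 24 UMIs, a ratio of 22.3 [12.8, 38.0]. With unshared barcodes (405 cells) H2-K1 passed 2-fold as well (2.13), so 5 of 9 were called. Of all genes 4.40% were called higher there and 1.19% lower. The regulators Stat2 (8.73), Irf1 (2.23) and Irf9 (2.08) were called, and Ifnb1 was at 38.1 CPM on 71 UMIs against 1.32 in remaining microglia. The constitutive Psmb5, Psmb6 and Psmb7 stayed at 1.00, 1.02 and 1.02.

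In the class II group all 4 heavy chains were called. Of 9 genes 5 were called (H2-K1, H2-D1, H2-T23, H2-Q7, Tap1), where only 1.33% of all genes were called higher and 0.209% lower, with a median log2 ratio of 1.03 (-0.10 over all genes). The study listed these 5, B2m and Psmb9 among the top genes of its MHC high microglia, a cluster of the same data. The gate genes Cd74, H2-Aa, H2-Ab1 and H2-Eb1 were in that list too, so the count is no independent support. H2-K1 was at 1093 CPM [1055, 1132], a ratio of 2.31 [2.22, 2.39], and H2-Q7 at 126 (3.08 [2.75, 3.44]). H2-T23 was at 305 (2.33), Tap1 at 69.0 (2.75) and H2-D1 at 3322 (2.04), with Psmb9 just outside at 1.98. Library 1 supplied 429 of the 750 cells, and without it H2-T23 had a ratio of 1.58. H2-D1 fell just under 2-fold without library 2 (1.94), and Psmb9 passed it, at 2.01 to 2.06, when library 3, 4, 5 or 6 was left out. H2-K1 was above remaining microglia in all 6 libraries, by 1.65 to 2.39-fold, and H2-T23 by 1.15 to 2.49-fold, while Tap1 was above it in 5 of 6. Unshared barcodes (587 cells) gave the same count, with 2.47 for H2-K1, where 1.42% of all genes were called higher and 0.230% lower. The regulator Irf1 was called (280, ratio 4.09 [3.79, 4.41]), and it was higher here than in interferon microglia (153). Ciita, the class II counterpart of Nlrc5, gave 38 UMIs against 8 in remaining microglia. Nlrc5 gave 10 UMIs, a ratio of 6.10 that was 1.87 without library 1.

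The other states moved little. None of the 9 genes was called in cycling, Lpl, Spp1 or Ccl2 microglia, where 7.88%, 3.87%, 2.25% and 0.56% of all genes were called higher and 0.838%, 2.57%, 1.17% and 0.112% lower. In cycling microglia H2-T23 was at 75.2 CPM (0.575 [0.490, 0.670]), below remaining microglia in all 6 libraries, and Tap1 was at 46.9 (1.87). Spp1 microglia had 1.68 times the H2-K1, 1.61 times the H2-D1 and 1.47 times the B2m of remaining microglia, each higher in 6 of 6 libraries, without a like change in Psmb8 (1.17) or Psmb9 (0.929). Tap1 was higher too, at 42.3 CPM against 25.1 in remaining microglia. Most of the Spp1 group had shared barcodes (669 of 1242, 53.9%). On its unshared cells (573) H2-K1 was at 1.74, B2m at 1.41, and Tap1 passed 2-fold (2.06), against 2.79% of all genes. Lpl microglia followed them with H2-K1 at 1.54 and B2m at 1.38. In Ccl2 microglia H2-Q7 had the highest ratio, 1.90 [1.76, 2.05], and it was 1.67 on unshared barcodes. The median log2 ratio of the 9 genes was 0.02, 0.04, 0.48 and 0.08 in the 4 groups, against 0.10, -0.02, -0.04 and -0.04 over all genes.

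The gate sets interferon microglia apart as 1 class, so the genes were also read along the interferon RNA of single cells. Microglia-gated cells were thinned to 1000 UMIs, which left out 7479 shallower cells, and sorted by their UMIs of the 10 interferon gate genes. There were 26091 cells with 0, 1735 with 1, 438 with 2 to 4 and 138 with 5 or more. Tap1 climbed in each step, from 27.4 to 54.8, 112 and 283 CPM, and ended 10.3-fold above the first bin [7.28, 14.3], higher in 4 of 4 libraries. Between the first and last bins H2-T23 went from 131 to 420 (3.21-fold), Psmb9 from 58.0 to 225 (3.87), Psmb8 from 169 to 464 (2.74) and H2-Q7 from 43.3 to 116 (2.68). H2-K1 went from 523 to 1029 (1.97), H2-D1 from 1763 to 2877 (1.63), Tapbp from 242 to 406 (1.68) and B2m from 2941 to 4594 (1.56). Thus 5 of 9 genes were called in the last bin against the first, where 9.63% of all genes were called higher and 9.01% lower. With unshared barcodes it was 6 of 9, where 11.2% of all genes were higher and 10.5% lower. Thinned to 500 UMIs it was 5 of 9, where 28.6% of all genes were higher and 16.6% lower. They were not the same 5: H2-K1 (2.10) and Tapbp (2.38) came in, while H2-Q7 (1.97 on 2 UMIs) and Psmb9 dropped out. The last bin then held 55 cells, and Tap1 ended at 18.9 [10.3, 32.1] on 14 UMIs and Psmb9 at 1.87 [0.384, 5.47] on 3. On unshared barcodes Tap1 ended at 11.6 [7.72, 16.7] and Psmb9 at 3.43.

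The steps were unequal, though differences between genes were not tested. In cells with 1 interferon UMI Psmb8 was at 1.05 [0.934, 1.18] and Tap1 at 2.00 [1.60, 2.48]. The Psmb8 value was 1.15 [1.01, 1.31] on unshared barcodes and 1.23 [1.02, 1.46] at 500 UMIs, and that of Tap1 was 1.70 and 2.23. In cells with 2 to 4 UMIs Psmb8 was at 1.69 and Tap1 at 4.09, the latter at 2.49 [1.56, 3.78] on unshared barcodes. Psmb9 was at 1.38 [0.956, 1.92] in this bin, and at 3.40 [2.30, 4.86] when thinned to 500 UMIs. Stat2 ended at 11-fold, and the partners Psme2, Psmb10 and Psme1 at 2.86, 2.62 and 1.94. The constitutive subunits did not follow: Psmb5, Psmb6 and Psmb7 were at 0.950 [0.505, 1.63], 1.12 and 0.811 in the last bin. Tap2 was at 1.38 [0.710, 2.41] and Pdia3 at 0.986. Nlrc5 gave 3 UMIs in the last bin and 19 in the first, a ratio of 29.9 with a counting interval of 5.66 to 101.

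**Figure D5:**
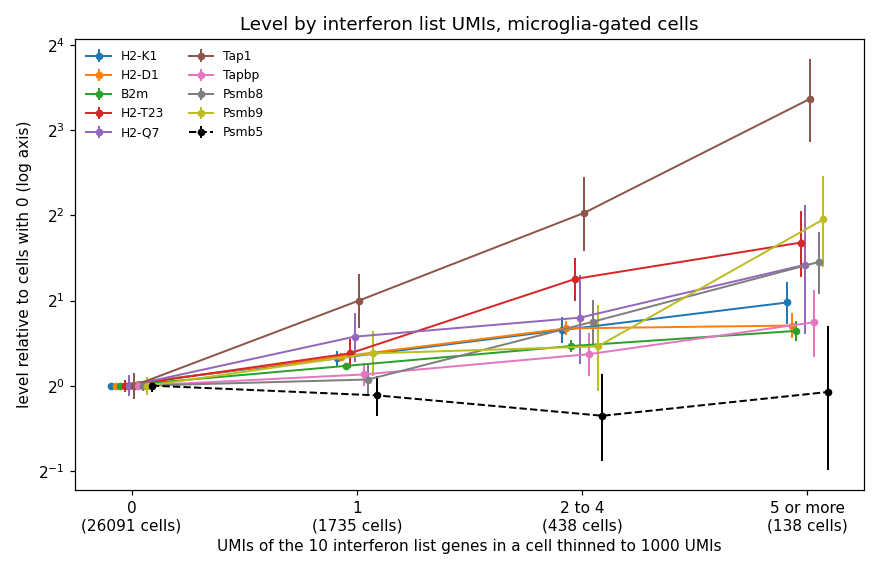
Level of 9 genes and of the constitutive subunit Psmb5 (dashed) relative to microglia-gated cells with 0 interferon list UMIs (y axis, log axis, with 95% counting intervals), in 4 bins of interferon list UMIs per cell thinned to 1000 UMIs (x axis). Tap1 ends at 10.3, Psmb9 at 3.87 and H2-T23 at 3.21, while Psmb5 stays near 1.

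Ratios of 1 gene to another within the same cells do not depend on the total. For each UMI of B2m, remaining microglia had 0.168 of H2-K1 and NK-gated cells 0.334 [0.310, 0.361], and for H2-D1 the values were 0.580 and 1.20. Dendritic-gated cells had 1.28 H2-D1 per B2m but 0.186 H2-K1. The balance of H2-D1 to H2-K1 was 3.45 in remaining microglia, 3.60 [3.34, 3.88] in NK-gated cells, 5.90 [5.44, 6.41] in monocyte-gated and 6.91 [6.06, 7.91] in dendritic-gated cells. On unshared barcodes the values were 3.43, 3.59, 5.87 and 7.01. Over single libraries the balance ran from 3.15 to 4.05 in remaining microglia and from 3.77 to 6.87 in monocyte-gated cells, which overlap. In dendritic-gated cells it ran from 6.44 to 8.05, over 2 libraries. The inducible Psmb8 stood to its constitutive counterpart Psmb5 at 1.67 in remaining microglia, 2.40 [1.89, 3.07] in NK-gated, 2.64 in monocyte-gated, 3.43 in dendritic-gated cells and 3.29 [2.78, 3.90] in interferon microglia. In choroid plexus cells it was 0.107 [0.0598, 0.180], and 0.00775 on 1 UMI of Psmb8 in those with at most 1% microglial RNA. On unshared barcodes it was 1.75 in remaining microglia, 2.59 in NK-gated cells and 3.31 in interferon microglia. For Psmb9 to Psmb6 remaining microglia had 0.330, interferon microglia 0.730 and choroid plexus cells 0.0718, and for Psmb10 to Psmb7 the values were 0.929, 1.78 and 0.162. Without choroid plexus cells over 1% microglial RNA these 2 ratios were 0.0134 and 0.104 in that group. All 3 ratios were thus above those of remaining microglia in interferon microglia and below them in choroid plexus cells, with intervals apart. In NK-gated cells Psmb10 to Psmb7 was 1.23 [0.903, 1.67], which overlaps remaining microglia. Tap1 to Tap2 was 0.409 in remaining microglia, 1.24 in dendritic-gated cells and 1.39 [1.16, 1.68] in interferon microglia, and 0.387, 1.26 and 1.42 on unshared barcodes.

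In the order of levels H2-K1 ran in the sequence NK, class II and interferon, whose intervals did not overlap, then Spp1, Lpl and monocyte, whose neighbours did. For H2-D1 the first 5, NK, monocyte, dendritic, class II and interferon, were each clear of the next. For B2m the first 4 (interferon, class II, NK and Spp1) overlapped with their neighbours. Psmb8 led in dendritic-gated cells, then monocyte-gated cells, both clear of the next, and Tap1 in interferon and dendritic cells, which overlapped. Over the 12 groups, whose points share libraries, the log2 levels of H2-K1 and B2m had r = 0.948, those of Psmb8 and Psmb9 r = 0.935 and those of H2-Q7 and Psmb8 r = 0.350. A further ranking took 5544 genes outside the gates and left out the gene set followed here. In it the patterns most like H2-K1 were those of Gna13 (r = 0.894), Zc3h7a, Zc3h12a, Tnfaip3 and Polr2a (0.866). Those most like Tap1 were Zbp1 (0.899), Irf7, Oas1a, Sp100 and Nmi (0.846). Within the set, B2m (r = 0.948) was closer to H2-K1 than any of these genes. Psmb9 (r = 0.889) was closer to Tap1 than all of them but Zbp1. These correlations describe 12 groups and carry no test.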

How the data were processed

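Droplet 3′ libraries of CD45+ brain cells from 6 SCID mice were deposited as 1 matrix of raw UMI counts (31053 genes, 40411 barcodes, 105560763 UMIs). Per the file header the authors made it with Cell Ranger 3.1.0, and the submitters' processing notes name mm10, Cell Ranger 3.1 and Seurat 3.1.5. The 6 libraries were joined by its aggregation step, and their median depth in the matrix stayed unequal (1536 to 3503 UMIs). No other column of per-sample values was left unused (0). Counts were summed over gated cells and divided by the group's total. Intervals are exact Poisson (95%), for ratios exact conditional, for shares exact Clopper-Pearson. Gates need a minimum of genes and UMIs of fixed markers, and cells that met several lineage gates (101) were left out. The exception was a cell of the monocyte and dendritic gates, which was kept as dendritic-gated and is not among the 101 on that ground. Microglial states were assigned in a fixed order (interferon, class II, cycling, Lpl, Spp1, Ccl2), and 1306 cells met several. Doublets were treated by the limit of 2500 genes and by leaving out cells of several lineage gates. A cell that met 1 lineage gate and the microglial gate was counted in the lineage. Doublets with microglia can therefore remain in the lineage groups. Values per library are given from 20 cells on. Thinning used a fixed seed. All 10 genes are named, and of each other list at most 3 genes with the highest and 2 with the lowest ratio, except NK receptors and regulators, which may all be named. One regulator is not reported here. Likeness is Pearson's r of log2(level + 10). The calls were tested on simulated Poisson counts with changes larger than 2-fold. Such counts hold no variation between cells or libraries, and calls near 2-fold were not tested. The 10 genes, the gates and the lists were chosen with earlier results of these data known. Groups were taken from the sample labels alone, which do not name suffixes, so the design of 3 against 3 mice was not tested. Python 3.11.15, numpy 2.4.6, scipy 1.17.1, pandas 2.3.3 and matplotlib 3.10.9 were used, with scanpy 1.11.5 for the doublet scores of 1 alternative.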

Additional observations from a re-analysis of the deposited data

How the results depend on the processing

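Each count of the 9 genes called higher or lower was recomputed under other filters, gates, depths and references, and without each library in turn. Of 448 such counts 421 stayed within 1.5 times, and of 2179 gene ratios 1855 stayed within the main counting interval. Many of the main counts were 0, and a 0 that stayed 0 was taken as within 1.5 times. These were the counts of lower genes outside choroid plexus cells, and those of higher genes in choroid plexus cells and in cycling, Lpl, Spp1 and Ccl2 microglia. The 421 therefore say less about the counts above 0. No ratio of at least 2-fold changed direction, and 91 smaller ones did. Alternatives with 0 UMIs gave no ratio. The counts in NK-gated cells (6 higher) and in monocyte-gated cells (4 higher) did not leave that range under any alternative. With 1 library left out, only the count of lower genes in choroid plexus cells did: it ran from 5 (without library 1) to 8. Elsewhere the cause was not tested. The granulocyte count of 2 was 4 with at most 1% microglial RNA (where 1 was lower and 32.7% of all genes were higher), 4 at a fold of 1.5, 4 with cells thinned to 500 UMIs, and 0 with a monocyte gate of Ccr2 and Ly6c2 alone. The dendritic count of 5 was 3 without an upper limit on genes. It was also 3 when ratios were centred on the median gene (18.9% of all genes higher). A lower gene (1) appeared in granulocytes without a minimum level, in dendritic-gated cells with the gates' UMI minimum doubled, at a fold of 1.5 and without shared barcodes, in cycling microglia at a fold of 1.5 and at 500 UMIs, and in Lpl microglia with the UMI minimum doubled. At a fold of 1.5 the counts of higher genes were 8 in interferon and 8 in class II microglia. They were 1 in cycling, 1 in Lpl, 3 in Spp1 and 1 in Ccl2 microglia. A lower fold calls more of all genes too. Counts in this section with no share of all genes beside them cannot be set against that background. Without a minimum level 1 gene was called in each of cycling, Lpl and Spp1 microglia. In cycling microglia 1 was called when the gates' UMI minimum was doubled, in Ccl2 microglia 1 when cells were thinned to 500 UMIs, and in Spp1 microglia 1 when shared barcodes were left out. The last 2 choices were tried along the interferon bins too, where 5 genes were called at 500 UMIs (28.6% of all genes higher) and 6 with unshared barcodes (11.2%). The 5 at 500 UMIs were in part other genes than those of the main count. The unshared barcodes and the narrower monocyte gate were chosen after seeing the data. Thinned to 500 UMIs, Tap1 in NK-gated cells had a ratio of 1.40. H2-Q7 in interferon microglia had 1.54 on the 188 cells that met no other state gate, and H2-Q7 in choroid plexus cells 0.586 without library 1. Centring moved the share of calls that were higher from 67.5% to 53.0% in NK-gated cells (10.8% of genes higher and 9.58% lower) and from 32.8% to 53.1% in choroid plexus cells (25.0% and 22.1%). The border macrophage comparison could not be made with the 2 cells that met this gate alone. No pairing of mice was possible because no result comes from a test between groups of mice and the columns carry no replicate numbers. The cell groups do share libraries. The main ratios pool UMIs over libraries, and values within libraries are given for part of the results.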
